A study of Mus musculus with 12 samples.

Results

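The genes described here are 10 genes of podosomes and of the sealing zone, the actin structures with which osteoclasts hold on to bone: Itgb3, Itgav, Src, Ptk2b, Vav3, Dock5, Scin, Gsn, Cttn and Tln1. They were taken by symbol, and not by any measured value, from 55401 genes counted in the bone marrow cultures of the study, where all 10 were found and all 10 passed the filter on low counts that left 14030 genes for testing. The study deleted Impdh2, which encodes an enzyme of guanine nucleotide synthesis, in the myeloid lineage (LysM-cKO), and RNA was sequenced from cultures of wild-type (Wt) and LysM-cKO marrow with 2 libraries in each of 4 groups. The groups were Wt R0D3, Wt R40D3, LysM-cKO R0D3 and LysM-cKO R40D3, and R0D3 and R40D3 are the submitters' codes, which the labels do not spell out. All 8 libraries carry the same cell type and treatment labels, for osteoclasts under differentiation. The culture protocol states 3 days with L929 supernatant equivalent to 20 ng/ml of M-CSF, then reseeding and 40 ng/ml of RANKL, so that R0 and R40 could stand for the RANKL concentration, but no label says so. The LysM promoter is active across macrophages and neutrophils as well as osteoclast precursors, and the labels give neither the alleles carried by the Wt mice nor strain, age or sex. Nothing in the labels says that the libraries of a group came from separate animals or cultures, so the p-values below measure only the spread between these libraries, which may be technical.

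Podosomes are small adhesion points with a core of branched actin and a surrounding ring of integrins and adaptor proteins, and macrophages and osteoclasts both make them. In an osteoclast on bone they gather into the sealing zone, a ring that closes off the area to be resorbed. The integrin made of the products of Itgav and Itgb3 binds matrix there and signals through the kinases Src and Ptk2b (Pyk2) to exchange factors for Rac, among them Vav3 and Dock5, while talin, from Tln1, ties the integrin to actin, and cortactin (Cttn), gelsolin (Gsn) and scinderin (Scin) act on the filaments.

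Impdh2 itself was measured at 22.3 to 28.2 CPM (counts scaled to a common library size with TMM factors) in the 4 Wt libraries and 7.03 to 8.38 CPM in the 4 LysM-cKO libraries. Its log2 difference was −1.73 at R40D3 and −1.81 at R0D3 (edgeR quasi-likelihood test, adjusted p = 0.0386 and 0.0323). Both calls were lost when any 1 of the compared libraries was left out (adjusted p from 0.128 to 0.661), with the log2 difference then between −1.97 and −1.63. Library totals ran from 16009146 to 19221865 counts. The R0D3 cultures carry the osteoclast label. Of 14 osteoclast markers 10 or 11 were above 3 counts in each of their libraries. Tcirg1 was at a mean of 436 CPM in Wt and 416 CPM in LysM-cKO and Acp5 at 14.5 and 13.5 CPM. In contrast, Calcr, the calcitonin receptor gene, had 0 counts in all 4 and Car2 and Oscar had at most 3. The summed level of the 14 was 1227 to 1400 CPM at R0D3 and 14343 to 40475 CPM at R40D3. All 14 rose in each genotype, beside 11.4% of all tested genes in Wt and 6.99% in LysM-cKO cultures. Of 12 macrophage markers 4 fell in each genotype, beside 5.52% of all tested genes in Wt and 3.15% in LysM-cKO cultures. With the replicate number as a block 8 fell in Wt and 5 in LysM-cKO cultures, beside 11.6% and 8.22% of all tested genes. The summed level of the 12 ran from 18695 to 44078 CPM over the 8 libraries. The bulk libraries cannot tell apart fewer cells of a type and less RNA per cell. Summed markers of stromal fibroblasts stood at 537 and 648 CPM in the replicate 2 libraries of LysM-cKO R40D3 and R0D3, against 1578 to 2023 CPM in the other 6 libraries, with none of the 11 tested markers called in any comparison (at most 3 with an unadjusted p under 0.05), or 1, lower in the Wt response, with the replicate block. Neutrophil and progenitor markers summed to 88.2 to 543 CPM, megakaryocyte and platelet markers to 94.9 to 269 CPM, and lymphocyte markers to 0.855 to 3.44 CPM.

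The genes of both integrin chains, Src, Dock5, Scin and Cttn were higher at R40D3 in Wt and in LysM-cKO cultures, Vav3 was lower in both, and Ptk2b, Gsn and Tln1 did not pass the test in either. In Wt cultures 7 of 10 genes passed (adjusted p under 0.05), 6 higher and 1 lower, where 16.9% of all tested genes passed, 11.4% higher and 5.52% lower. In LysM-cKO cultures the count was again 7, with 6 higher and 1 lower, beside 10.1% of all genes, 6.99% higher and 3.15% lower. The median of the 10 log2 differences was 1.65 in Wt and 1.24 in LysM-cKO cultures, and that of all tested genes was 0.0098 and 0.0094. The libraries of R40D3 lay wholly above those of R0D3 for 7 of the 10 genes in each genotype (32.9% of all genes in Wt, 27.3% in LysM-cKO) and wholly below for 2 (29.2% and 22.5%). The 2 responses were measured in separate libraries.

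**Figure D1:**
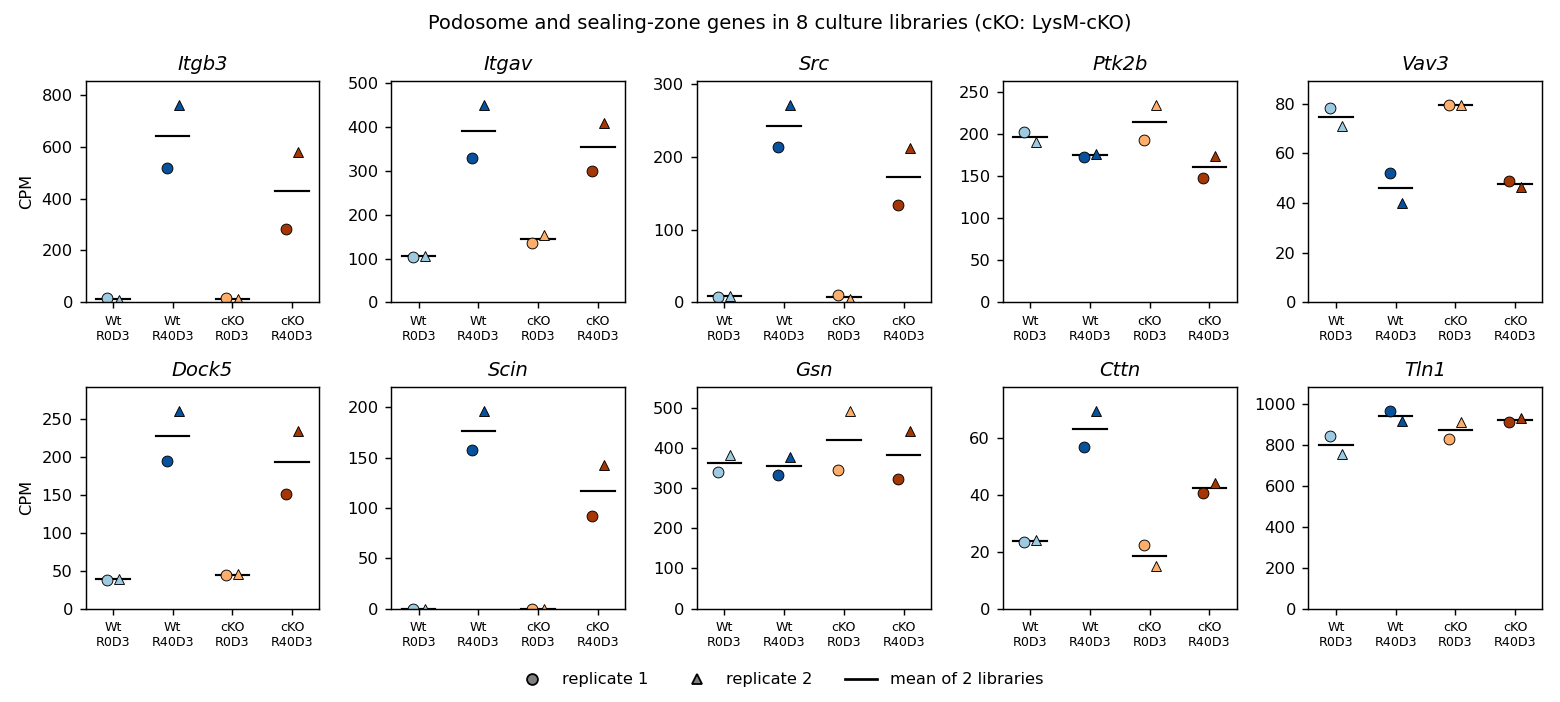
Level of each of the 10 genes in CPM (y axis, linear, from 0) in the 8 culture libraries, with circles for replicate 1, triangles for replicate 2 and a line at the mean of 2. Itgb3, Itgav, Src, Dock5, Scin and Cttn are higher in both R40D3 groups (Itgb3 282 to 761 CPM, against 8.21 to 16.0 at R0D3), and replicate 2 is the higher of the R40D3 libraries for each of these 6.

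The promoters of some of the genes can be set side by side, since RefSeq starts (GRCm38.p6) were at hand for 6 of the 10, Itgav, Src, Vav3, Scin, Gsn and Tln1. Those of 3 genes that rose together and of Gsn, the relative of Scin that did not pass, are shown to let their sequence be compared, each as the 250 bases before the start, 5′ to 3′ on the gene's strand. Capitals mark matches, on either strand, to GGAAA (the NFAT core), TGANTCA (AP-1), GAGGAA (PU.1), TCATGTG or TCACGTG (E-boxes of the MITF family). GGAAA and GAGGAA can share bases. The Src start used lies inside the gene's outermost annotated bounds.
Scin, chr12:40134229-40134478, minus strand: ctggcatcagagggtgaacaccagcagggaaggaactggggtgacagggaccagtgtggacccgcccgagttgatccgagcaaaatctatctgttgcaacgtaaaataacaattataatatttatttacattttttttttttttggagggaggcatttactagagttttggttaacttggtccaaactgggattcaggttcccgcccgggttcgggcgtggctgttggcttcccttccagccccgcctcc
Src, chr2:157424043-157424292, plus strand: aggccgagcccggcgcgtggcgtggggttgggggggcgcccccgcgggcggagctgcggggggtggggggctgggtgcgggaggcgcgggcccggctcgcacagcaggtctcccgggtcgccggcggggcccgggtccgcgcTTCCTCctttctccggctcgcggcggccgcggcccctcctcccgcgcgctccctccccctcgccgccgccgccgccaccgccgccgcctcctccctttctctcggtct
Itgav, chr2:83724147-83724396, plus strand: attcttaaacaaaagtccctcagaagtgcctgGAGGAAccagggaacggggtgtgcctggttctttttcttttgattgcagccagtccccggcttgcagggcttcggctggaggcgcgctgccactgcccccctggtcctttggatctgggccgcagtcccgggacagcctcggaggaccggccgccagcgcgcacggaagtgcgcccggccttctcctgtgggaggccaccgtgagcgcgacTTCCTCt
Gsn (first of 3 starts), chr2:35256109-35256358, plus strand: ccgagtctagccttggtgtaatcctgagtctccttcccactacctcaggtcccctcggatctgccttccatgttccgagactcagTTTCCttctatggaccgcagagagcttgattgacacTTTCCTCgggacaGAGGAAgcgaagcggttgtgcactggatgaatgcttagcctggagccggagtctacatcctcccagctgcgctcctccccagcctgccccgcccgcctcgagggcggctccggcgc
The window of Scin held none of the 5 motifs, that of Src held 1 PU.1 match, that of Itgav 2 PU.1 matches, and that of Gsn 2 NFAT core and 2 PU.1 matches. For Gsn this depended on the start, as start 2 held no match and start 3 held 1 NFAT core match. Of the genes not shown, Tln1 held 1 PU.1 match. Start 3 of Vav3 held 1 NFAT core and 1 AP-1 match, and its starts 1 and 2 held none. Over 32851 promoter windows of the same length, 55.6% held the NFAT core, 6.75% the AP-1 motif, 23.3% the PU.1 motif, and 3.25% and 3.13% the E-boxes TCATGTG and TCACGTG. The windows differed in base composition, with a GC content of 49.2% for Scin, 82.8% for Src, 64.4% for Itgav and 60.8% for Gsn.

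The integrin genes rose by very different factors. Itgb3, the beta chain found on osteoclasts and platelets (chromosome 11, 104608000 to 104670476, plus strand, GRCm38), stood at 16.0 and 8.21 CPM in the Wt R0D3 libraries and at 519 and 761 CPM in the Wt R40D3 libraries. In LysM-cKO cultures it stood at 15.5 and 12.4 CPM at R0D3 and at 282 and 579 CPM at R40D3. Every R40D3 library was thus far above every R0D3 library, while the R40D3 libraries of the genotypes overlapped, the second LysM-cKO library lying above the first Wt library. The log2 fold change was 5.72 ± 0.48 (SE) in Wt (adjusted p = 0.000652) and 4.94 ± 0.46 in LysM-cKO cultures (adjusted p = 0.00146). Without replicate 2 of LysM-cKO R40D3 the latter was 4.29.

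Itgav, the alpha chain that pairs with several beta chains (chromosome 2, 83724397 to 83806916, plus strand), was already expressed at R0D3, at 104 and 105 CPM in Wt and 136 and 153 CPM in LysM-cKO cultures. At R40D3 it reached 328 and 450 CPM in Wt and 299 and 407 CPM in LysM-cKO cultures. The 4 R40D3 libraries all lay above the 4 R0D3 libraries, and by mean the LysM-cKO cultures were the higher at R0D3 and the lower at R40D3. The log2 fold change was 1.89 ± 0.19 in Wt (adjusted p = 0.00112) and 1.29 ± 0.19 in LysM-cKO cultures (adjusted p = 0.00707). Per kilobase of exon, Itgb3 was at 0.142 to 0.280 times the level of Itgav in the 4 R0D3 libraries, at 2.87 and 3.08 times in the Wt R40D3 libraries and at 1.72 and 2.59 times in the LysM-cKO R40D3 libraries. On this scale the more abundant of the 2 transcripts switched from Itgav to Itgb3. In replicate 1 of LysM-cKO R40D3 this order rests on the exonic length, as Itgb3 was at 282 CPM and Itgav at 299 CPM. Exons of Itgav overlap those of Gm13684 on the other strand, and reads from the 2 genes cannot be told apart where strand was not used in counting, which is not given in the sources used here.

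The kinase genes behaved differently from each other. Src, which encodes the tyrosine kinase without which osteoclasts form no ruffled border (chromosome 2, 157418444 to 157471862, plus strand), stood at 8.04 and 8.52 CPM in Wt R0D3 and at 214 and 271 CPM in Wt R40D3 libraries. In LysM-cKO cultures it was at 10.9 and 4.49 CPM at R0D3 and at 134 and 211 CPM at R40D3. Both LysM-cKO R40D3 libraries lay below both Wt R40D3 libraries, though the higher LysM-cKO library came within a few CPM of the lower Wt library. The log2 fold change from R0D3 to R40D3 was 4.87 ± 0.39 in Wt (adjusted p = 0.000556) and 4.48 ± 0.39 in LysM-cKO cultures (adjusted p = 0.00115), and without replicate 1 of LysM-cKO R0D3 the latter was 5.26. Ptk2b, which encodes Pyk2, the focal adhesion kinase relative of haematopoietic cells (chromosome 14, 66153257 to 66281052, minus strand), moved little. It was at 202 and 190 CPM in Wt R0D3 and 172 and 176 CPM in Wt R40D3 libraries, and at 193 and 234 CPM in LysM-cKO R0D3 and 148 and 173 CPM in LysM-cKO R40D3 libraries. The R40D3 libraries were the lower ones in each genotype without overlap, at −0.17 ± 0.12 (log2) in Wt (adjusted p = 0.406) and −0.41 ± 0.12 in LysM-cKO cultures (adjusted p = 0.078). With the replicate number as a block, which brought the LysM-cKO calls to 8 of 10 beside 21.3% of all genes, it passed there (adjusted p = 0.0171), as it did with DESeq2 (adjusted p = 0.0325).

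The 2 exchange factor genes moved in opposite directions. Dock5, which encodes an activator of Rac that osteoclasts need for the sealing zone (chromosome 14, 67752135 to 67933442, minus strand), stood at 38.1 and 39.2 CPM in Wt R0D3 and 195 and 261 CPM in Wt R40D3 libraries. In LysM-cKO cultures it was at 43.9 and 45.1 CPM at R0D3 and 152 and 234 CPM at R40D3, so that all R40D3 libraries were above all R0D3 libraries. The log2 fold change was 2.56 ± 0.22 in Wt (adjusted p = 0.000711) and 2.12 ± 0.22 in LysM-cKO cultures (adjusted p = 0.00204). Vav3, which encodes an exchange factor that acts downstream of integrins and Syk (chromosome 3, 109340653 to 109685698, plus strand), was at 78.3 and 70.8 CPM in Wt R0D3 and 52.1 and 40.1 CPM in Wt R40D3 libraries. In LysM-cKO cultures it was at 79.5 CPM in both R0D3 libraries and at 49.0 and 46.4 CPM at R40D3. It fell by 0.69 on the log2 scale in Wt (SE 0.13, adjusted p = 0.0114) and by 0.74 in LysM-cKO cultures (SE 0.13, adjusted p = 0.0141), with no overlap between the conditions. Both calls depended on single libraries: the first was lost without replicate 1 (adjusted p = 0.0896) or replicate 2 (adjusted p = 0.0506) of Wt R0D3, and the second without replicate 2 of LysM-cKO R0D3 (adjusted p = 0.0707) or of LysM-cKO R40D3 (adjusted p = 0.0648).

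Scin showed the most extreme contrast among the 10. It encodes scinderin (adseverin), a calcium-dependent protein that severs and caps actin filaments, and lies at chromosome 12, 40059769 to 40134228, minus strand. Its count was 0 in both Wt R0D3 libraries, 1 (0.0575 CPM) and 0 in the LysM-cKO R0D3 libraries, 3011 and 3218 in the Wt R40D3 libraries and 1741 and 2317 in the LysM-cKO R40D3 libraries. In CPM the R40D3 levels were 157 and 197 in Wt and 92.1 and 143 in LysM-cKO cultures, with both LysM-cKO libraries below both Wt libraries. Set against 3 counts per R0D3 library, the mean R40D3 level was at least 980-fold higher in Wt (adjusted p = 3.84e-05) and at least 663-fold higher in LysM-cKO cultures (adjusted p = 7.84e-05). This limit covers counting error only.

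Gsn, the gelsolin gene and a relative of Scin in the same family of severing proteins (chromosome 2, 35256380 to 35307892, plus strand), was abundant throughout. It was at 341 and 383 CPM in Wt R0D3, 332 and 377 CPM in Wt R40D3, 346 and 492 CPM in LysM-cKO R0D3 and 322 and 442 CPM in LysM-cKO R40D3 libraries. The groups overlapped, and the log2 fold change was −0.03 ± 0.20 in Wt (adjusted p = 0.943) and −0.14 ± 0.20 in LysM-cKO cultures (adjusted p = 0.752). Per kilobase, Scin made up 33.3% and 35.4% of the Scin and Gsn transcripts together in the Wt R40D3 libraries and 23.2% and 25.4% in the LysM-cKO R40D3 libraries, up from at most 0.0175% at R0D3.

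Cttn, which encodes cortactin, the Src substrate that stabilises branched actin (chromosome 7, 144435733 to 144471009, minus strand), stood at 23.5 and 24.3 CPM in Wt R0D3 and 56.7 and 69.6 CPM in Wt R40D3 libraries. In LysM-cKO cultures it was at 22.2 and 15.1 CPM at R0D3 and 40.7 and 44.4 CPM at R40D3, the latter pair below both Wt R40D3 libraries. The rise was 1.40 ± 0.18 on the log2 scale in Wt (adjusted p = 0.00293) and 1.19 ± 0.19 in LysM-cKO cultures (adjusted p = 0.00959). The LysM-cKO call was lost without replicate 2 of LysM-cKO R40D3 (adjusted p = 0.0581) and with only the 4 LysM-cKO libraries in the fit (adjusted p = 0.0519). Tln1, the talin gene (chromosome 4, 43531519 to 43562691, minus strand), changed little. It was at 843 and 755 CPM in Wt R0D3, 967 and 916 CPM in Wt R40D3, 831 and 911 CPM in LysM-cKO R0D3 and 914 and 933 CPM in LysM-cKO R40D3 libraries. The R40D3 libraries lay above the R0D3 libraries in each genotype, at 0.24 ± 0.11 (log2) in Wt (adjusted p = 0.185) and 0.08 ± 0.11 in LysM-cKO cultures (adjusted p = 0.702), and neither passed. Exons of Tln1 overlap those of Creb3 on the other strand, with the same limit as for Itgav.

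**Figure D2:**
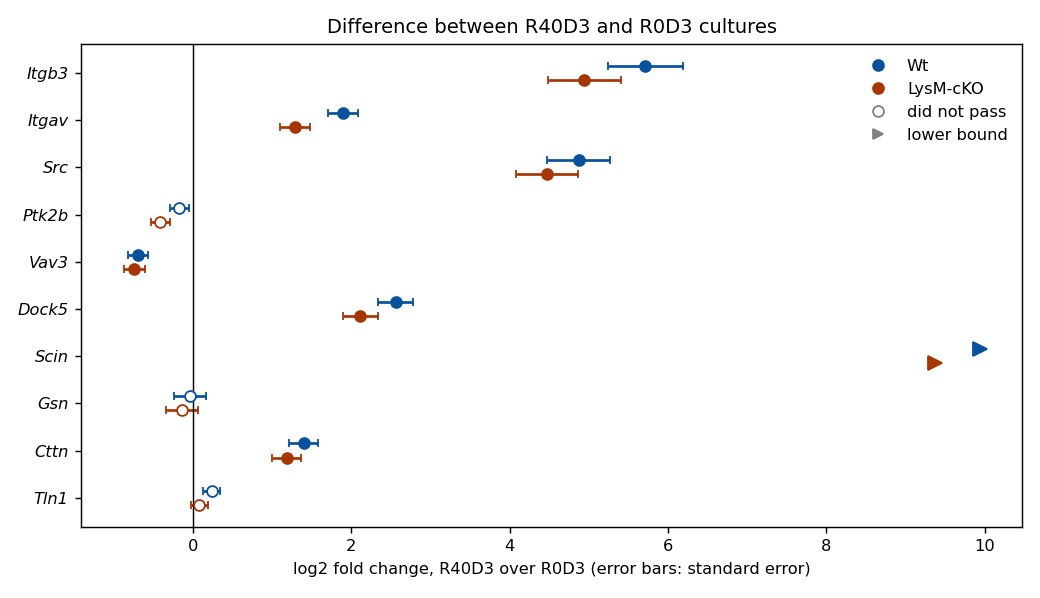
Log2 fold change of each gene between R40D3 and R0D3 cultures (x axis) in Wt and LysM-cKO cultures, with bars for the standard error, filled points for adjusted p under 0.05 and triangles for the lower bound of Scin against 3 counts. Itgb3 (5.72 and 4.94) and Src (4.87 and 4.48) lie far to the right of Itgav, Dock5 and Cttn, and Vav3 lies to the left of 0 in both genotypes.

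Levels of different genes were compared as CPM per kilobase of exon, averaged over the 2 libraries of a group. In Wt R0D3 cultures Gsn (115 ± 9.4, SD) and Tln1 (81.5 ± 6.4) stood above all the others, followed by Ptk2b at 26.5, Vav3 at 12.4, Itgav at 9.75, Cttn at 5.71, Dock5 at 3.18, Itgb3 at 2.05 and Src at 1.89. In Wt R40D3 cultures the order was Gsn (112 ± 10), Itgb3 (108 ± 29), Tln1 (96.1 ± 3.7), Scin (59.0 ± 9.2), Src (55.5 ± 9.3), Itgav (36.2 ± 8.0), Ptk2b (23.6), Dock5 (18.8 ± 3.8), Cttn (15.1 ± 2.2) and Vav3 (7.68 ± 1.4). Neighbours within the first 3 of this list, Scin and Src, and Dock5 and Cttn, differed by less than their spread. In LysM-cKO R40D3 cultures Gsn (121 ± 27) and Tln1 (94.2 ± 1.4) came first, then Itgb3 (73.0 ± 36), Src (39.5 ± 13), Scin (39.2 ± 12), Itgav (32.9 ± 7.1), Ptk2b (21.7), Dock5 (15.9 ± 4.8), Cttn (10.1 ± 0.61) and Vav3 (7.94 ± 0.30). Neighbours in this list from Gsn to Itgav differed by less than the larger of their SDs, and Itgb3 was above Tln1 in replicate 2 (98.1 and 95.2). The order of the genotypes is thus not shown to differ for Itgb3 and Tln1.

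Relatives of the 10 genes were read on the same scale. Capg, a capping protein of the gelsolin family, was at 221 CPM per kilobase in Wt R0D3 and 275 in Wt R40D3 cultures, Flii at 42.5 and 51.7, and Svil at 6.93 and 4.84. Avil and Vil1, the other family members listed, stayed at or under 0.183 CPM per kilobase in every library and were not tested. Hcls1, the cortactin relative of blood cells, was at 94.4 and 81.0 CPM per kilobase, above Cttn at both conditions. Vav1 was at 42.4 and 36.1 and Vav2 at 10.6 and 10.9, Dock2 at 32.6 and 22.5 and Dock8 at 21.8 and 19.0, Ptk2 at 1.18 and 1.22, and Tln2 at 0.418 and 0.494 CPM per kilobase. Among integrin beta chains Itgb1 was at 195 and 175, Itgb2 at 213 and 160 and Itgb5 at 112 and 66.4 CPM per kilobase, so that Itgb3 moved from the least abundant of these 4 at R0D3 to a level between Itgb5 and Itgb2 at R40D3.

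The genotype comparison asks whether LysM-cKO cultures, in which Impdh2 was lower but still measured, differ in these genes from Wt cultures at a given condition. At R40D3 none of the 10 passed the test, and 2 of 14030 genes did (0.0143%). By edgeR 2 of the 10 (Cttn and Scin) had an unadjusted p under 0.05, a level reached by 7.47% of all genes, and DESeq2 called none of the 10. The log2 difference, LysM-cKO minus Wt, was negative for 8 of 10 genes, beside 51.4% of all tested genes. Its median was −0.19 for the 10 genes and −0.0076 for all tested genes. The 6 genes that rose at R40D3 were all on the negative side, with a median of −0.53, from −0.59 for Scin to −0.14 for Itgav. This comparison and the Wt response share the Wt R40D3 libraries, so genes picked for being high there lean to the negative side here. The share on that side among all genes that rose was not computed.

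Scin was lower in LysM-cKO cultures by 0.59 on the log2 scale (SE 0.22, unadjusted p = 0.0264, adjusted p = 0.648, and adjusted p = 0.0746 with the replicate block). Cttn differed by −0.57 ± 0.18 (unadjusted p = 0.0130, adjusted p = 0.648), Itgb3 by −0.57 ± 0.38 (adjusted p = 0.694), Src by −0.49 ± 0.32 (adjusted p = 0.691), Dock5 by −0.24 ± 0.21 (adjusted p = 0.753) and Itgav by −0.14 ± 0.18 (adjusted p = 0.845). For Scin, Src and Cttn both LysM-cKO libraries lay below both Wt libraries, as did those of 18.9% of all tested genes. These sizes rested on single libraries: without replicate 2 of LysM-cKO R40D3 the difference was −1.20 for Itgb3, −0.96 for Scin and −0.87 for Src, and without replicate 1 it was −0.12, −0.29 and −0.17. Of the 4 genes that did not rise, Ptk2b was at −0.12 ± 0.12, Tln1 at −0.03 ± 0.11, Vav3 at 0.05 ± 0.13 and Gsn at 0.11 ± 0.20.

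Compared within replicate number, 7 of the 10 genes were lower in LysM-cKO cultures in both pairs at R40D3, beside 34.3% of all tested genes. For Itgb3 the log2 ratio was −0.88 between the replicate 1 libraries and −0.39 between the replicate 2 libraries, for Scin −0.77 and −0.46, for Src −0.67 and −0.36, and for Dock5 −0.37 and −0.16. Each of these 4 was thus lower in both pairs, and by more between the replicate 1 libraries. Cttn gave −0.48 and −0.65, Itgav −0.13 and −0.14, and Ptk2b −0.22 and −0.02. The libraries of replicate 2 were higher than those of replicate 1 at R40D3 for all 6 genes that rose, in Itgb3 by a log2 ratio of 0.55 in Wt and 1.04 in LysM-cKO cultures, beside a genotype difference of −0.57. Osteoclast markers moved the same way: their summed level was 27733 and 40475 CPM in the Wt R40D3 libraries and 14343 and 26235 CPM in the LysM-cKO R40D3 libraries, with all 14 on the negative side of the genotype difference (median −0.62), 4 with an unadjusted p under 0.05 and none called, or 2 (Car2 and Oscar) with the replicate block, which called 0.214% of all genes. Neutrophil and progenitor markers were lower in LysM-cKO cultures too (8 of 8 tested, median −1.25), as were 10 of 11 stromal markers (median −0.81), with none called and 2 and 3 of them at an unadjusted p under 0.05. Summed neutrophil and progenitor markers stood at 543 and 127 CPM in Wt and 199 and 88.2 CPM in LysM-cKO cultures. Replicate 1 of LysM-cKO R40D3 thus lay above replicate 2 of Wt R40D3. Macrophage markers split evenly (6 of 12 negative), but their summed level was 27180 and 27831 CPM in Wt and 20682 and 18695 CPM in LysM-cKO cultures. Most of it was Lyz2, the gene of the LysM promoter, at 18949 and 20334 CPM in Wt and 11773 and 11302 CPM in LysM-cKO cultures. The summed level is thus mainly that of 1 gene, and the median difference of the 12 macrophage markers was −0.0004. The part of these cell mixtures in the differences of the 10 genes was not tested.

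**Figure D3:**
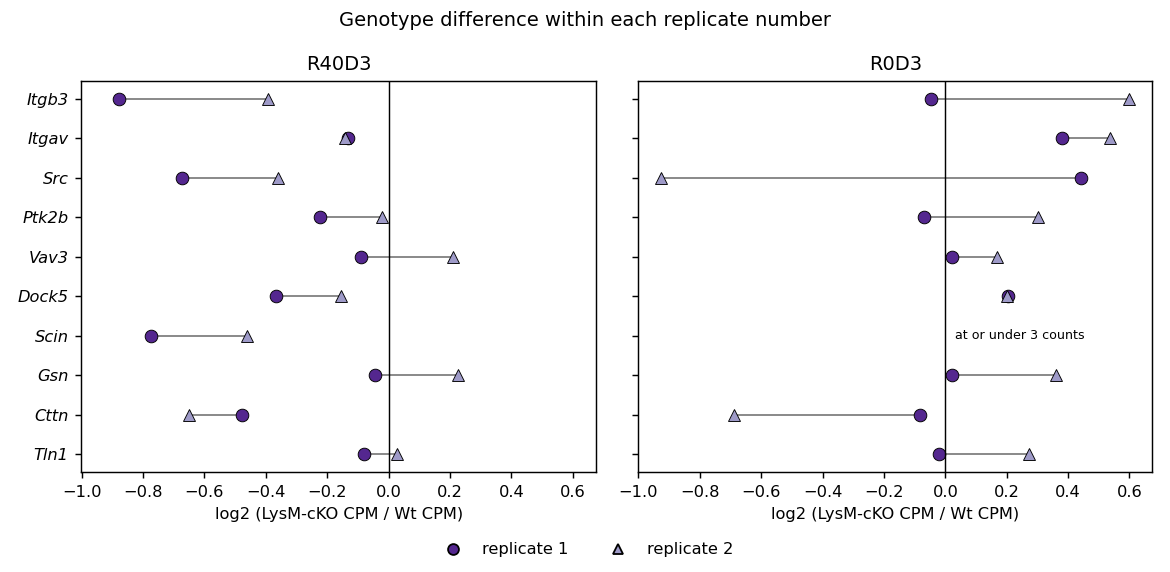
Log2 ratio of LysM-cKO over Wt CPM for each gene within replicate 1 (circles) and replicate 2 (triangles), at R40D3 (left) and R0D3 (right). At R40D3 the circle and triangle of Itgb3, Src, Scin, Cttn, Dock5, Itgav and Ptk2b all lie left of 0, and at R0D3 only Cttn has both symbols there; Scin has no ratio at R0D3, where its counts were 0 or 1.

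At R0D3 the log2 difference was positive for 7 and negative for 2 of the 9 genes other than Scin, with a median of 0.13. Of all tested genes 48.1% were negative, with a median of 0.0084. Within replicate number 4 of the 10 genes were higher in LysM-cKO cultures in both pairs, beside 29.5% of all tested genes. In both pairs 1 was lower, beside 27.7%. None of the 10 genes passed by edgeR or DESeq2, as against 0.0143% of all genes by edgeR, and 1 (Itgav) had an unadjusted p under 0.05, beside 4.42% of all genes. Itgav was the higher in LysM-cKO cultures, by a log2 difference of 0.46 ± 0.19 (unadjusted p = 0.0409, adjusted p = 0.997), in both pairs (0.38 and 0.54). Dock5 was higher by 0.20 ± 0.22 (0.21 and 0.20 in the pairs) and Cttn differed by −0.36 ± 0.19 (−0.08 and −0.69), both with an adjusted p of 0.997. Of the other 6 genes with a ratio, the log2 difference lay between −0.10 for Src and 0.21 for Gsn. Replicates disagreed most for Src, with 0.44 in replicate 1 and −0.92 in replicate 2 at 4.49 to 10.9 CPM. Scin had at most 1 count in each library and is given no ratio. Neutrophil and progenitor markers were lower in LysM-cKO cultures at R0D3 as well (8 of 8 tested, median −0.77), as were 10 of 11 stromal markers (median −0.44). None was called, and 1 and 0 of them had an unadjusted p under 0.05. Summed neutrophil and progenitor markers stood at 427 and 166 CPM in Wt and 219 and 118 CPM in LysM-cKO cultures. The summed macrophage markers stood at 38930 and 44078 CPM in Wt and 24573 and 25159 CPM in LysM-cKO cultures. Most of this was Lyz2, at 29996 and 35255 CPM in Wt and 15404 and 16856 CPM in LysM-cKO cultures. Of the 12 macrophage markers 5 were on the negative side and 7 on the positive side, with a median log2 difference of 0.06. The part of these cell mixtures in the R0D3 differences of the 10 genes was not tested.

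The difference between the genotypes in the response, the interaction term, was tested in the same fit and was called for none of the 10 genes and none of 14030 (0% called, 1.77% with an unadjusted p under 0.05, and none with the replicate block or DESeq2). All 9 genes other than Scin had a negative term, meaning a smaller rise or a larger fall in LysM-cKO cultures. The terms ran from −0.77 ± 0.59 for Itgb3 to −0.05 ± 0.18 for Vav3. Of all tested genes 53% were negative, of 105 other podosome genes 62.9%, and of 14 osteoclast markers 12 (median −0.39). The 9 genes were read in the same 8 libraries, so their signs are not separate observations. The term was −0.60 ± 0.26 for Itgav (unadjusted p = 0.0535), −0.45 ± 0.30 for Dock5 and −0.39 ± 0.52 for Src, and the adjusted p was 1.00 for all 9. For Itgb3 it was −1.39 without replicate 2 of LysM-cKO R40D3 and −0.31 without replicate 1, and for Dock5 −0.80 and −0.13. Leaving out a library turned the sign for Src, Vav3, Gsn and Cttn: without replicate 1 of LysM-cKO R0D3 the term was 0.42 for Src and 0.12 for Cttn, without replicate 1 of Wt R40D3 it was 0.16 for Vav3, and without replicate 2 of LysM-cKO R0D3 it was 0.17 for Gsn.

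Beyond the 10 genes, 107 other genes of podosomes and matrix adhesion were listed in 6 groups by role, and 105 of them were tested. From R0D3 to R40D3 in Wt cultures 32 of the 105 passed, 23 higher and 9 lower, which is 30.5% beside 16.9% of all tested genes, and the median difference of the 105 was 0.05 on the log2 scale. In LysM-cKO cultures 25 passed, 16 higher and 9 lower, which is 23.8% beside 10.1% of all tested genes, with a median of −0.03. These medians stand close to those of all tested genes, and by edgeR no listed gene passed in the genotype comparisons or the interaction, with or without the replicate block, which called 0.214% of all genes at R40D3 and 0.0214% at R0D3 (15 at R40D3, 5 at R0D3 and 4 in the interaction had an unadjusted p under 0.05). The counts moved with the fit: with the replicate block they were 53 in Wt (28.3% of all genes) and 40 in LysM-cKO cultures (21.3% of all genes). Without 1 library they were lower in both genotypes, whichever library was left out, and so were the counts of all tested genes.

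Among ligands and receptors 1 of 14 rose and 4 fell in each genotype. That is 35.7% of them in each, beside 16.9% of all tested genes in Wt and 10.1% in LysM-cKO cultures. Itga2, the alpha chain of a collagen receptor, had 8 and 2 counts in the Wt R0D3 libraries and 64.0 and 82.9 CPM at R40D3, and its log2 fold change was 7.90 in Wt (9.12 without replicate 1 of Wt R0D3) and 7.10 in LysM-cKO cultures. Itgax (CD11c) fell by 1.57 and 1.71 and Spp1, the gene of the matrix protein osteopontin that the integrin of Itgav and Itgb3 binds, fell by 1.23 and 1.38. Of 18 kinases, phosphatases and adaptors 3 rose and 3 fell in Wt (33.3%) and 3 rose and 2 fell in LysM-cKO cultures (27.8%). The adaptor gene Bcar1 (p130Cas) was at 1.33 in Wt and 1.07 in LysM-cKO cultures (adjusted p = 0.0553 in the latter, and 0.0185 with the block, with 1.69 without replicate 1 and 0.65 without replicate 2 of LysM-cKO R0D3), the phosphatase gene Ptpn12 at 1.31 and 1.13 and the paxillin gene Pxn at 1.10 and 0.78. Lpxn, the gene of leupaxin, a paxillin relative, fell by 1.06 and 0.67 and the kinase gene Fyn by 0.63 and 0.65. Paxillin and leupaxin transcripts thus moved in opposite directions in both genotypes.

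Tiam1, which encodes a Rac exchange factor, rose by 2.88 on the log2 scale in Wt and 2.06 in LysM-cKO cultures, the atypical GTPase gene Rhou by 2.08 and 1.16 and the Arf regulator gene Git1 by 1.50 and 1.08, while Dock2 fell by 0.54 in Wt and stood at −0.19 in LysM-cKO cultures (adjusted p = 0.414). Of 27 tested genes of the actin core 4 rose and 1 fell in Wt and 3 rose and 2 fell in LysM-cKO cultures. That is 18.5% of them in each genotype, beside 16.9% of all tested genes in Wt and 10.1% in LysM-cKO cultures. Myo10, an unconventional myosin gene, rose by 1.71 and 1.32, the adaptor genes Pstpip1 by 1.59 and 1.35 and Pstpip2 by 0.84 and 1.27, and the formin gene Diaph1 fell by 0.48 and 0.43. Of 19 genes of the ring and adhesion plaque 7 rose in Wt and 1 in LysM-cKO cultures, beside 11.4% and 6.99% of all tested genes, and none fell. With the replicate block 7 and 5 rose and 1 fell in Wt. Without 1 library 0 (without replicate 2 of Wt R40D3) to 5 rose in Wt and 0 to 1 in LysM-cKO cultures, so the counts of the genotypes are not shown to differ. Parvb was at 1.05 and 0.59, the vinculin gene Vcl at 0.93 and 0.58 and Lasp1 at 0.79 and 0.36, and for these 3 the LysM-cKO value did not pass (adjusted p = 0.061, 0.0815 and 0.218) but did with the replicate block (adjusted p = 0.000672, 0.0183 and 0.0255). Of 6 scaffold, protease and microtubule genes 2 rose in each genotype (33.3%), beside 11.4% of all tested genes in Wt and 6.99% in LysM-cKO cultures. Mmp14, which encodes a membrane-bound matrix metalloproteinase, rose by 3.82 and 3.68 (4.28 without replicate 1 of LysM-cKO R0D3). Sh3pxd2a, which encodes the podosome scaffold Tks5, rose by 0.94 and 0.68.

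Of these 21 named genes, 9 kept their call in Wt cultures whichever library was left out, namely Itga2, Spp1, Pxn, Lpxn, Tiam1, Rhou, Git1, Myo10 and Mmp14. The other 12 lost it at least once: 9 without replicate 1 of Wt R0D3 (adjusted p 0.0510 to 0.156), 7 without replicate 2 of Wt R0D3 (0.0545 to 0.0953), 2 without replicate 1 of Wt R40D3 (0.0581 and 0.0626) and 11 without replicate 2 of Wt R40D3 (0.0516 to 0.141). In LysM-cKO cultures 16 of the 21 passed, and Itga2, Itgax, Spp1, Tiam1, Myo10, Pstpip2 and Mmp14 kept their call. The other 9 lost it at least once: 5 without replicate 1 of LysM-cKO R0D3 (0.0765 to 0.0809), 9 without replicate 2 of LysM-cKO R0D3 (0.0633 to 0.159), 3 without replicate 1 of LysM-cKO R40D3 (0.0745 to 0.101) and 8 without replicate 2 of LysM-cKO R40D3 (0.0510 to 0.165).

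**Figure D4:**
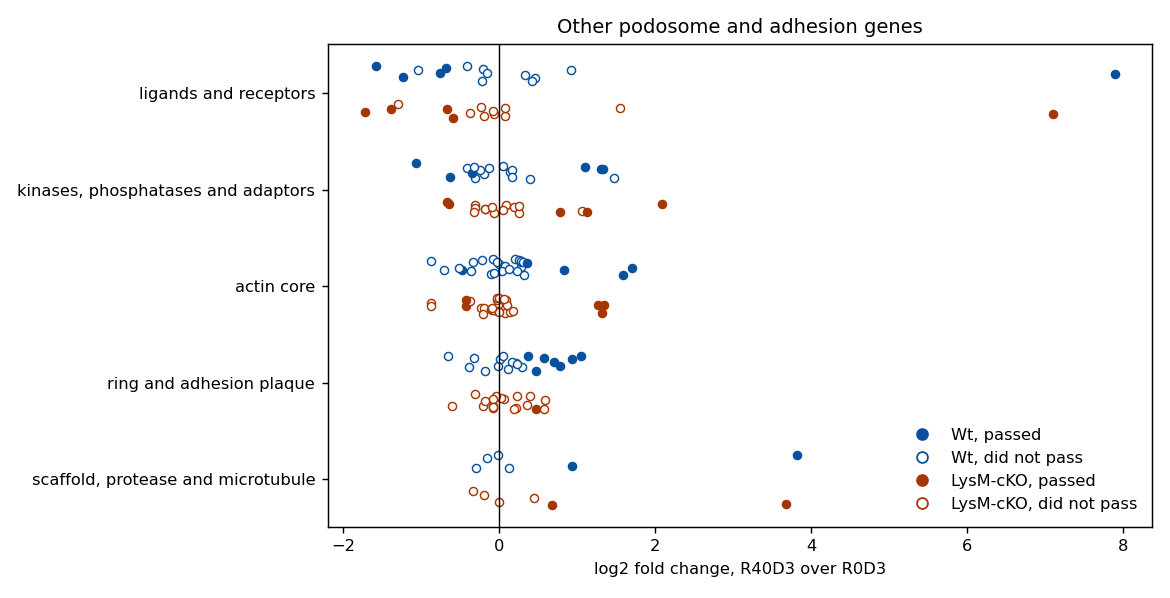
Log2 fold change between R40D3 and R0D3 (x axis) of 84 of the tested genes, in 5 of the groups by role, with Wt above LysM-cKO in each group and filled points for adjusted p under 0.05. Most points lie near 0 in both genotypes, and the points farthest to the right are Itga2 (7.90 and 7.10) and Mmp14 (3.82 and 3.68).

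The genes whose level ran most closely with each of the 10 over the 8 libraries were found from the root mean square difference of log2 CPM, each gene centred on its own mean. For Scin these were Car2 (0.30) and Calcr (0.36), both osteoclast markers, against a standard deviation of 5.42 for Scin itself. For Itgb3 they were Fam57b (0.13) and Coq8a (0.20), for Src Kank1 (0.21), for Itgav Myo10 (0.12) and Arpin (0.14), for Dock5 Klhl12 and Bhlhe40 (0.11 each), and for Cttn Rtl5 (0.09) and Rftn2 (0.13). Vav3 ran closest to Ctsb and Slc37a3 (0.07 each). Ptk2b (Cltb at 0.05, Aida at 0.06), Gsn (Gpx1 and Pkm at 0.05) and Tln1 (Med1 at 0.03, Nek9 at 0.04) themselves varied by a standard deviation of only 0.20, 0.21 and 0.12. These are descriptions over 8 libraries in 4 groups, with no test.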

How the data were processed

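RNA was measured in 8 bone marrow culture libraries, 2 in each of 4 groups. The deposited files hold raw counts per Ensembl gene, as the authors deposited them, in a table per replicate number, which were joined on gene ID (55401 genes, 99.5% matched to a symbol). Per the submitters' processing notes the tools were FastQC 0.11.2, Trimmomatic 0.36, HISAT2 2.1.0 and DESeq2 1.12.4 on GRCm38, while the counting tool, its annotation and any use of strand are not given in the sources used here. Counts were filtered with filterByExpr, scaled by TMM and tested in edgeR 4.0.16 (R 4.3.3, glmQLFit with legacy = FALSE, glmQLFTest, 1 fit over the 8 libraries, two-sided), with Benjamini-Hochberg adjustment over 14030 genes and a threshold of 0.05. CPM used the scaled library sizes, standard errors were taken from the log2 difference and its F statistic (difference over root F), and the prior count for the nearest profiles was 2. A group at 0 or 1 counts was set to 3 counts per library for a bound. Gene bounds, exonic lengths and overlaps came from the GENCODE annotation of GRCm38. The script was tested on simulated data.

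Replicate libraries differed by more than sampling noise (chi-square over degrees of freedom from 11.5 to 32.8), so all were kept as replicates. Deviations from the group means correlated between same-numbered libraries in all 6 pairs of groups (r from 0.343 to 0.609), and a number is also a deposited table, so the number was taken to mark a pairing, which the labels do not state. The main fit did not use this pairing, and its p-values ignore it. The replicate block, which uses it, was run as an alternative. Named besides the 10 genes were the 3 largest rises and the 2 largest falls per list in Wt cultures among genes that passed without overlap, relatives of the 10, and the 2 nearest profiles of each. A nearest profile of Src and the count of 1 gene group are not reported here. The genes and lists were chosen with earlier results of these data known. Alternatives were the replicate block, DESeq2 1.42.0, RLE factors, library size alone, no low-count filter, legacy = TRUE, a fit of only the 4 libraries compared, and leaving out each library. The forelimb libraries of the series were not used here.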

Additional observations from a re-analysis of the deposited data

How the results depend on the processing

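The number of the 10 genes called in the response stayed at 7 in Wt cultures under every fit with all libraries, and was 6 to 7 without 1 library. In LysM-cKO cultures it was 8 with the replicate block and DESeq2, 6 with only the 4 libraries compared, and 5 to 7 without 1 library. No genotype comparison or interaction called any of the 10 under any alternative run. Scaling by RLE factors or library size moved the median of all genes by at most 0.04 on the log2 scale. Pairing by replicate number (the replicate block) raised the pathway genes called from 32 to 53 in Wt (9 to 21 lower) and from 25 to 40 in LysM-cKO cultures (9 to 17 lower), and changed the calls of Ptk2b, Bcar1, Parvb, Vcl and Lasp1 in LysM-cKO cultures and no other call of the 10 genes or of the 21 pathway genes named. DESeq2 called 15 of the pathway genes lower in Wt, beside 901 of all 14030 genes. The fit of only the 4 libraries called 15 of the pathway genes lower in Wt, beside 979 of 13521 genes. In LysM-cKO cultures this fit called 10 of the pathway genes (8 higher, 2 lower), beside 533 of 13585 genes. It also ended the Impdh2 calls, as library size alone did at R40D3, and the LysM-cKO calls of Cttn, Pxn, Lpxn, Fyn, Rhou, Git1, Pstpip2, Diaph1 and Sh3pxd2a. Without the low-count filter the LysM-cKO call of Sh3pxd2a was lost. Without 1 library the pathway counts ran from 11 to 26 in Wt (8 to 17 higher, 3 to 9 lower) and from 9 to 20 in LysM-cKO cultures (7 to 15 higher, 2 to 9 lower). The fits without 1 library rest on a lone library in a group, which is taken to vary like the other groups. They turned the sign of small log2 differences, with these ranges: for the Wt response Gsn −0.17 to 0.056 and Impdh2 −0.081 to 0.26, and for the LysM-cKO response Gsn −0.42 to 0.14. For the genotypes at R40D3 they were Itgav −0.40 to 0.12, Ptk2b −0.26 to 0.016, Vav3 −0.12 to 0.24, Gsn −0.16 to 0.34, Tln1 −0.060 to 0.011 (and 0.011 with library size alone) and Dock5 −0.61 to 0.061. At R0D3 they were Itgb3 −0.20 to 0.77, Src −0.91 to 0.40, Ptk2b −0.028 to 0.23 and Gsn −0.067 to 0.42, and for the interaction Src −0.89 to 0.42, Vav3 −0.20 to 0.16, Gsn −0.35 to 0.17, Cttn −0.46 to 0.12 and Impdh2 −0.10 to 0.24. The cause of these changes was not tested. Depth limited Scin, Calcr, Car2 and Oscar at R0D3, with 3 counts or fewer in each library.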

Other observations

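The alpha chain genes Itga4 and Itgam, which are outside the 10, were picked after their values were seen. Both were higher in LysM-cKO cultures in each same-numbered pair, as were 31.7% of all tested genes at R40D3 and 29.5% at R0D3. Itga4 was at 170 and 170 CPM in the Wt R40D3 libraries and 243 and 219 CPM in the LysM-cKO R40D3 libraries, a log2 difference of 0.44 ± 0.10 (SE, unadjusted p = 0.00264, adjusted p = 0.648 by edgeR, and 0.0674 with the replicate block). At R0D3 the level was 202 and 192 CPM for Wt and 236 and 203 CPM in LysM-cKO cultures, a log2 difference of 0.15 ± 0.10. Itgam (CD11b) was at 170 and 157 CPM in Wt and 215 and 192 CPM in LysM-cKO cultures at R40D3, and at 187 and 189 CPM in Wt and 230 and 237 CPM in LysM-cKO cultures at R0D3. The log2 difference of Itgam was 0.31 ± 0.09 at both conditions (unadjusted p = 0.00828 and 0.00853, adjusted p = 0.648 and 0.997). Neither gene passed the adjusted threshold, and exons of Itgam overlap those of Gm49368.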
